A study of Mus musculus with 9 samples.

Results

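The genes described here encode karyopherins, the receptors that carry proteins and RNA through nuclear pores, and the proteins of the Ran cycle that give this traffic its direction. They were measured by RNA sequencing in HL-1 cells, an immortalised mouse line derived from atrial cardiomyocytes that beats and divides in culture. The 33 members were chosen by name from the 25175 gene symbols in the files. They comprise 5 importin alpha genes (Kpna), 11 importers of importin beta type (Kpnb1, Ipo and Tnpo), 7 exporters (Xpo, Xpot and Cse1l) and 10 genes of the Ran cycle and messenger RNA export. All 33 reached the level set for testing, a minimum of 1 FPKM (a fragment count scaled by transcript length and by the mapped total of its library) in 3 or more libraries, as did 11337 genes in all. The cells had received 5 µM ivermectin, 10 µM importazole or, as vehicle, 0.1% DMSO, each for 24 h, and each of the 3 groups held 3 libraries of poly(A) RNA. The labels give a DMSO content for vehicle only, so a match of solvent between groups is not known. Ivermectin, an antiparasitic drug, blocks import by importin alpha and beta in cell culture, and importazole blocks importin beta. The compounds are not structural relatives and their concentrations differed, so direct comparisons hold for these concentrations only.

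In the import cycle an importin alpha recognises the basic nuclear localisation signal of a cargo and binds importin beta, the product of Kpnb1, which passes through the pore. Other beta-type importins bind cargo directly. In the nucleus RanGTP releases imported cargo, and the same RanGTP binds exportins together with their cargo and lets them leave. Rcc1 loads Ran with GTP on chromatin, Rangap1 with Ranbp1 triggers GTP hydrolysis in the cytoplasm, and Nutf2 brings RanGDP back into the nucleus. Most messenger RNA leaves through the Nxf1 and Nxt1 pair, which does not use RanGTP.

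Across both compounds, 1 of the 33 genes passed the test. Xpot, which encodes exportin-t, the exporter of transfer RNA, rose with ivermectin and with importazole. Fold changes were taken as differences in log2(FPKM + 1), which understates the change of low genes, and a gene was called changed at a Benjamini-Hochberg adjusted p under 0.05 in a limma fit to all genes tested. With ivermectin the 1 called member stood against 4.31% of all genes called in either direction, 1.79% called higher and 2.52% called lower. With importazole it stood against 2.26% called in either direction and 1.69% called higher. Between ivermectin and importazole limma called 0 members, against 3.42% of all genes, and 4 members had an unadjusted p under 0.05, against 19% of all genes. The share of members called, 3.03% with either compound, was near the share of all genes.

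The 250 bases before the RefSeq start are shown for Xpot, the member that was called, and for Kpnb1, the target of importazole. For Ipo7, the importer with the smallest p in both comparisons with vehicle, the window is shown up to the GENCODE start, which leaves 209 bases. Coordinates are on GRCm38.p6, each sequence runs 5′ to 3′ on the strand of its gene, and capitals mark the letters CACGTG (an E-box) in Xpot and Ipo7 and CCAAT in Kpnb1.
Xpot, chr10:121626333-121626582, minus strand: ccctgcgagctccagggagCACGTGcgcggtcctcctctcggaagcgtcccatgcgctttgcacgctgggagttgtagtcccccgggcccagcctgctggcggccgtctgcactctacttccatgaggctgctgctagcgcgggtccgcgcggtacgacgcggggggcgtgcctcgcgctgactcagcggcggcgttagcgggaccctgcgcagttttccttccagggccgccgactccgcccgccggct
Ipo7, chr7:110018065-110018273, plus strand: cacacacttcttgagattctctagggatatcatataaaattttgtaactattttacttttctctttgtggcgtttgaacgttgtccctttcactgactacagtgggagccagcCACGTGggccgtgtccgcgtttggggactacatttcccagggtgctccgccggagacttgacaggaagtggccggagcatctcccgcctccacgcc
Kpnb1, chr11:97187893-97188142, minus strand: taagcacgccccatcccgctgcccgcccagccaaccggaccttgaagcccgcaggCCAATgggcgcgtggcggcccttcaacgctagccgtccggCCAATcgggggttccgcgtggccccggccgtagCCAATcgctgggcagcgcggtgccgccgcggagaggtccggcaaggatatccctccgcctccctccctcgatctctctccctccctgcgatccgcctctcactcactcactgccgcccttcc

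Windows of 250 bases were matched by symbol for 25 of the 33 members. On either strand, CACGTG stood in the window of 4 of them, Ipo7, Tnpo2, Xpot and Ran, which is 16.0% against 6.86% of 27025 genes in the RefSeq table. It began 231 bases before the RefSeq start of Xpot and 137 bases before that of Ipo7, which lies past the end of the Ipo7 sequence shown. The letters CCAAT stood in 11 of 25 members, 44.0% against 37.5% of all genes, and 3 times in Kpnb1. TGATGNAA, the core of the element that C/EBP and ATF4 bind together, stood in 0 of the 25 members and in 3.91% of all genes. These matches describe the letters in the windows, and of the 4 members with CACGTG only Xpot was called, while Ipo7, Tnpo2 and Ran were not.

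Library facts that touch these values are few. Read numbers could not be recovered from the FPKM, so depth is unknown, and summed FPKM ran from 365259 to 416748 over the 9 libraries. The labels do not say that libraries came from separate cultures, so the p-values cover the spread between libraries as sequenced, part or all of which may be technical. The libraries vehicle 2 and ivermectin 3 stood apart from the other 7 in listing an abundant transcript, Yam1, at 0. All 11 HL-1 markers reached 1 FPKM, with means between 2.84 and 2250 FPKM. Of these 11 markers, limma called 4 lower with ivermectin, against 2.52% of all genes called lower. With importazole it called 2 higher and 2 lower, against 2.26% of all genes in either direction. Between the compounds it called 1, lower with ivermectin, against 3.42% in either direction. The part of these markers in the values below was not tested. In a bulk sample fewer cells of a type and less RNA per cell cannot be told apart. Among markers of other cells, 4 of 6 fibroblast genes, 3 of 6 endothelial genes and 4 of 5 macrophage and blood genes averaged under 0.5 FPKM, and Hbb-bs was at 0 throughout. Of the others, Ddr2 averaged 31.2, Col1a1 0.786, Kdr 7.97, Eng 1.23, Pecam1 0.804 and Cd68 1.28 FPKM. Kdr, an endothelial marker, averaged 7.18 FPKM with ivermectin, 8.49 with importazole and 8.23 with vehicle. Of 2 tested endothelial markers, 1 was lower with ivermectin against each other group at an unadjusted p under 0.05, and limma called 0. Myh11, a smooth muscle myosin, averaged 0.0825 FPKM, although Acta2, a smooth muscle actin, averaged 1130 FPKM. Both tested smooth muscle markers were lower with each compound at an unadjusted p under 0.05, and limma called neither. Acta2 averaged 1100 FPKM with ivermectin, 1080 with importazole and 1210 with vehicle, and Cnn1 averaged 0.773, 0.816 and 1.32 FPKM in the same groups.

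The levels in vehicle cells, which FPKM states per transcript length, differed widely within each class. Among the importin alpha genes the order was Kpna2 at 64.5, Kpna6 at 28.1, Kpna4 at 13.2, Kpna1 at 8.9 and Kpna3 at 6.3 FPKM on average, and no neighbours in that order overlapped. Among the beta type importers Kpnb1 led at 76, followed by Ipo5 at 59.7, Ipo7 at 50.7 and Ipo9 at 37.5 FPKM. Next came Tnpo3 at 26.5 and Tnpo1 at 24 FPKM, whose libraries overlapped, and then Ipo4 at 18.2, Ipo13 at 16.2 and Ipo8 at 13.9 FPKM, each overlapping the next. Tnpo2 at 11.6 and Ipo11 at 7.45 FPKM were the lowest of that class. The partner of importin alpha was thus the most abundant importer transcript of beta type in these cells. Cse1l, at 88.6 FPKM, was the most abundant exporter, and Xpo6 at 24 and Xpo1 at 20.1 FPKM overlapped below it. Cse1l encodes the receptor that recycles importin alpha, whereas Xpo1 serves most exported proteins. Lower exporters were Xpo5 at 12.6, Xpot at 8.03, Xpo4 at 5.99 and Xpo7 at 3.32 FPKM. Ran, the GTPase that karyopherins bind, was the highest member at 409 FPKM, ahead of Rangap1 at 104, Ranbp1 at 74.8 and Nutf2 at 53.4 FPKM. Nxf1 at 49.3, Nxt1 at 48.8 and Ranbp3 at 47.1 FPKM overlapped as neighbours, with Rcc1 at 37.4, Ranbp10 at 10.6 and Ranbp9 at 6.51 FPKM below them.

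**Figure D1:**
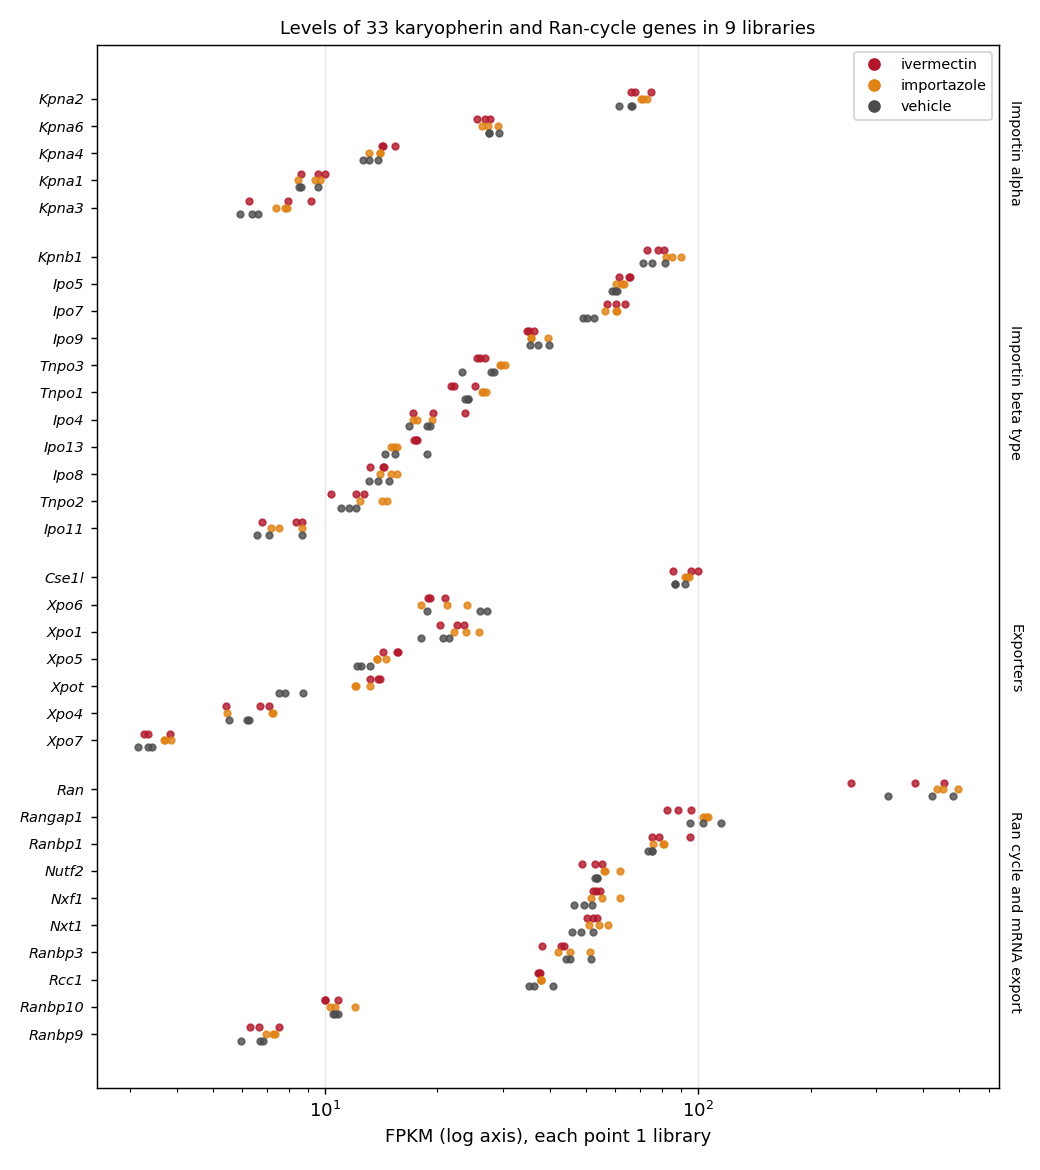
Level of each of the 33 genes in every library (FPKM, log axis), by class and in order of the vehicle mean, with ivermectin points above importazole points and vehicle points lowest in each row. Ran is highest, at 256 to 498 FPKM, and the points of Xpot under both compounds (12 to 14 FPKM) lie right of its vehicle points (7.53 to 8.74 FPKM).

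The exporters held the only member that limma called. Xpot (GRCm38 chromosome 10, 121587380 to 121626332, minus strand) had 13.2, 14 and 13.9 FPKM in ivermectin libraries, against 8.74, 7.83 and 7.53 FPKM in vehicle libraries. In importazole libraries it had 12.1, 12 and 13.2 FPKM. All 6 compound libraries lay above all 3 vehicle libraries, and before rounding the lowest ivermectin library also lay just above the highest importazole library. Its mean was 13.7 ± 0.442 FPKM with ivermectin and 12.4 ± 0.641 FPKM with importazole, against 8.03 ± 0.631 FPKM with vehicle (SD, n = 3 each), which is 71.1% and 54.5% above vehicle.

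The log2 change of Xpot was 0.71 with ivermectin (95% confidence interval 0.54 to 0.88, limma adjusted p = 3.87e-04) and 0.57 with importazole (0.40 to 0.74, limma adjusted p = 0.00255). Ivermectin minus importazole was 0.14 (-0.03 to 0.31, limma adjusted p = 0.377), so a difference between the compounds was not shown, and the interval leaves room for one up to 0.31. Both comparisons share the 3 vehicle libraries. By size Xpot stood 40th of 203 genes called higher with ivermectin and 78th of 192 called higher with importazole. Both calls held in all 19 alternative settings, and without vehicle 2 and ivermectin 3 the changes were 0.68 and 0.56. Of its 50-base stretches, 14.0% also occur in the annotated genes Gm7389 and Gm49281, which have no FPKM value here. How reads from those stretches were assigned is not known, so part of its level is uncertain. Ddr2, the 1 fibroblast marker that averaged above 1 FPKM, also rose with both compounds (limma adjusted p = 7.02e-04 and 0.00379). The summed fibroblast list ran from 36.2 to 38.3 FPKM with ivermectin, 33.8 to 36.6 with importazole and 23.3 to 26.3 with vehicle. Without Ddr2 it was 0.871 to 1.53, 0.864 to 1.32 and 0.844 to 1.51 FPKM in the same groups, and Col1a2, Pdgfra, Tcf21 and Dcn stayed at or below 0.291 FPKM in every library.

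The other 6 exporters did not pass the test. Cse1l, which returns importin alpha to the cytoplasm, had 85.6, 95.8 and 99.9 FPKM with ivermectin, 92.1, 93.3 and 94.3 with importazole and 86.7, 86.8 and 92.2 with vehicle. Its libraries overlapped in both comparisons with vehicle, with log2 changes of 0.08 and 0.07. Xpo1, the exporter of proteins with leucine-rich export signals, had 20.3, 22.6 and 23.6 FPKM with ivermectin, 23.8, 22.1 and 25.8 with importazole and 21.5, 18.1 and 20.7 with vehicle. Its importazole libraries all lay above vehicle (log2 change 0.24, 95% interval 0.04 to 0.44, limma adjusted p = 0.218). Its ivermectin libraries overlapped vehicle (0.14, limma adjusted p = 0.424).

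Xpo5, which exports microRNA precursors, had 15.7, 15.6 and 14.3 FPKM with ivermectin, 13.8, 13.8 and 14.6 with importazole and 13.2, 12.5 and 12.2 with vehicle, so both compound groups lay above vehicle. Its log2 change was 0.25 with ivermectin (limma adjusted p = 0.072) and 0.14 with importazole (limma adjusted p = 0.342). Xpo7, a broad-range exporter and the lowest member of the set, had 3.27, 3.36 and 3.85 FPKM with ivermectin, 3.71, 3.73 and 3.87 with importazole and 3.36, 3.15 and 3.43 with vehicle. Only its importazole libraries cleared vehicle (log2 change 0.14, limma adjusted p = 0.447). Xpo6, the exporter of profilin and actin, averaged 19.6 ± 1.09 FPKM with ivermectin, 21.1 ± 2.95 with importazole and 24 ± 4.55 with vehicle, and its vehicle libraries ran from 18.8 to 27.2 FPKM. Xpo4 averaged 6.39 ± 0.858, 6.64 ± 1.03 and 5.99 ± 0.39 FPKM in the same groups, and its libraries overlapped in every comparison.

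The importers of beta type held no called member. Kpnb1, the receptor that importazole targets, had 72.9, 80.8 and 77.9 FPKM with ivermectin, 85.1, 90.1 and 82.2 with importazole and 81.6, 75.2 and 71.2 with vehicle. The importazole libraries all lay above vehicle, the lowest by less than 1 FPKM, and all above ivermectin. The ivermectin libraries all lay inside the vehicle range. The log2 change was 0.17 with importazole (95% interval 0.02 to 0.33, limma adjusted p = 0.258) and 0.02 with ivermectin (-0.13 to 0.18, limma adjusted p = 0.879). Both intervals lie inside a 1.5-fold change, which is 0.585 on the log2 scale. A further 7.07% of its exonic bases overlap a gene on the opposite strand, and the sources used here do not state whether counting used strand.

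Ipo7, an importer of ribosomal proteins and histone H1, had 56.9, 60.1 and 63.8 FPKM with ivermectin, 60.7, 56.3 and 60.2 with importazole and 49.2, 50.3 and 52.5 with vehicle. All 6 compound libraries lay above the vehicle libraries, and the compound groups overlapped each other. Its log2 change was 0.25 with ivermectin (95% interval 0.11 to 0.39, limma adjusted p = 0.0578) and 0.22 with importazole (0.08 to 0.36, limma adjusted p = 0.117). The ivermectin value passed the threshold in 2 of 19 alternative settings, with a filter at 5 FPKM (adjusted p = 0.0479) and with quantile normalization (adjusted p = 0.0487).

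Tnpo2, a relative of transportin-1, had 12.1, 12.7 and 10.4 FPKM with ivermectin, 12.4, 14.7 and 14.2 with importazole and 12.1, 11.6 and 11 with vehicle. Its importazole libraries lay above vehicle, by 0.23 on the log2 scale (limma adjusted p = 0.268), and 10.6% of its exonic bases overlap a gene on the opposite strand. Tnpo1, which imports proteins with proline-tyrosine signals such as hnRNP A1, averaged 23.1 ± 1.89 FPKM with ivermectin, 26.6 ± 0.34 with importazole and 24 ± 0.274 with vehicle. Tnpo3, the importer of SR splicing factors, averaged 26.1 ± 0.733, 29.9 ± 0.466 and 26.5 ± 2.73 FPKM in the same groups. For both of these genes every importazole library lay above every ivermectin and every vehicle library, and ivermectin minus importazole was -0.20 for Tnpo1 (limma adjusted p = 0.137) and -0.19 for Tnpo3 (limma adjusted p = 0.222). Of the 50-base stretches of Tnpo1, 13.7% also occur in the annotated gene Gm6493.

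Ipo11, the lowest of the class, had 8.65, 6.78 and 8.37 FPKM with ivermectin, 7.51, 7.15 and 8.69 with importazole and 7.09, 6.57 and 8.68 with vehicle, and its groups overlapped throughout. Ipo5, which imports ribosomal proteins and histones, lay above vehicle in all 3 ivermectin libraries, at 61.5 to 65.8 FPKM against 58.7 to 60.4 FPKM, a difference of 0.10 on the log2 scale (limma adjusted p = 0.324). Ipo13, which works in both directions, was at 17.3 to 17.6 FPKM with ivermectin and at 15 to 15.6 FPKM with importazole, against 14.5 to 18.7 FPKM with vehicle. The libraries of Ipo4, Ipo8 and Ipo9 overlapped in every comparison. Ipo4 shares 56.9% of its 50-base stretches with the overlapping annotation Gm49378, so its level is uncertain.

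Among the importin alpha genes limma called 0 of 5 in each comparison, and those with an unadjusted p under 0.05 were Kpna3 with ivermectin and Kpna2 and Kpna3 with importazole. Kpna2 had 66.2, 67.6 and 74.9 FPKM with ivermectin, 70.4, 73.1 and 71 with importazole and 61.3, 65.9 and 66.3 with vehicle. Its importazole libraries lay above vehicle (log2 change 0.15, limma adjusted p = 0.303), and 1 ivermectin library fell just inside the vehicle range (0.11, limma adjusted p = 0.383). The gene shares 70.4% of its 50-base stretches with other annotated genes, mostly predicted ones, so its level is uncertain. Kpna3 had 6.27, 7.97 and 9.18 FPKM with ivermectin, 7.93, 7.83 and 7.41 with importazole and 6.36, 5.92 and 6.62 with vehicle. Its log2 change was 0.26 with each compound (95% interval 0.01 to 0.51 in both, limma adjusted p = 0.227 and 0.302), and ivermectin 1 lay inside the vehicle range.

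Kpna4 had 14.3, 14.2 and 15.4 FPKM with ivermectin, 14, 13.1 and 14 with importazole and 12.6, 13.9 and 13.1 with vehicle. Its ivermectin libraries lay above both other groups, by 0.14 over vehicle on the log2 scale (limma adjusted p = 0.287). Kpna1 had 8.63, 9.55 and 10 FPKM with ivermectin, 9.67, 8.46 and 9.41 with importazole and 8.5, 9.57 and 8.62 with vehicle, with all groups overlapping. Kpna6 had 27.7, 26.8 and 25.6 FPKM with ivermectin, 29, 26.3 and 27.3 with importazole and 27.5, 27.5 and 29.3 with vehicle, and it was the 1 importin alpha gene whose change was below 0 with both compounds (-0.07 and -0.03). The make-up of the class was close to even across groups. Kpna2 gave 54.3 ± 1.02% of the summed importin alpha FPKM with ivermectin and 55.1 ± 1.5% with importazole, against 53.3 ± 0.496% with vehicle (SD, n = 3 each).

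Of the Ran cycle genes limma called 0 of 10 in each comparison. Ran itself had 256, 380 and 455 FPKM with ivermectin, 498, 436 and 453 with importazole and 482, 423 and 322 with vehicle. The vehicle and ivermectin libraries each spread widely and overlapped, and its log2 change of -0.19 with ivermectin had a 95% interval of -0.61 to 0.23. With importazole the change was 0.19 (-0.23 to 0.62), so a change of over 1.5-fold in Ran cannot be set aside in either comparison. Some 14.2% of its 50-base stretches recur in other annotated genes, among them Rasl2-9, which the files list at 2.11 to 3.15 FPKM.

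Rangap1 had 82.7, 95.7 and 88.5 FPKM with ivermectin, 103, 106 and 105 with importazole and 115, 103 and 95.3 with vehicle. The ivermectin libraries lay below importazole throughout and 1 of them just inside the vehicle range. Ivermectin minus vehicle was -0.23 (95% interval -0.40 to -0.06, limma adjusted p = 0.128), and ivermectin minus importazole was -0.24 (-0.41 to -0.07, limma adjusted p = 0.128). Ranbp1, its partner, had 75.1, 78.5 and 95 FPKM with ivermectin, 75.8, 80.9 and 80.7 with importazole and 75.4, 73.5 and 75.3 with vehicle. The importazole libraries cleared vehicle by a small margin (log2 change 0.08, limma adjusted p = 0.69), and 23.9% of its 50-base stretches occur in other annotated genes. Rcc1 had 37.3, 37.7 and 37.5 FPKM with ivermectin, 37.8, 37.8 and 37.8 with importazole and 40.7, 36.4 and 35.1 with vehicle, for changes of 0.01 and 0.02.

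Nutf2 averaged 52.3 ± 3.35 FPKM with ivermectin, 57.9 ± 3.22 with importazole and 53.4 ± 0.323 with vehicle (SD, n = 3 each), and its importazole libraries lay above both other groups. Nearly identical copies limit that value, since 45.9% of its 50-base stretches occur elsewhere and the pseudogene Nutf2-ps1 was listed at 54.1 to 63.1 FPKM. Ranbp9, a scaffold protein and the lowest of the class, had 6.31, 6.65 and 7.53 FPKM with ivermectin, 7.34, 6.94 and 7.27 with importazole and 5.97, 6.71 and 6.83 with vehicle, so its importazole libraries lay just above vehicle. Of its exonic bases 8.83% overlap Nol7 on the opposite strand. Ranbp3, a cofactor of Xpo1, was at 38.1 to 43.6 FPKM with ivermectin, below all vehicle libraries at 44.1 to 51.7 FPKM (log2 change -0.18, limma adjusted p = 0.308). Nxf1 was at 52.3 to 54.5 FPKM with ivermectin, above vehicle at 46.6 to 51.9 FPKM (0.11, limma adjusted p = 0.413). Its importazole libraries overlapped vehicle, with a larger change of 0.18 (95% interval 0.02 to 0.34, limma adjusted p = 0.256). Nxt1 and Ranbp10 overlapped in every comparison.

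**Figure D2:**
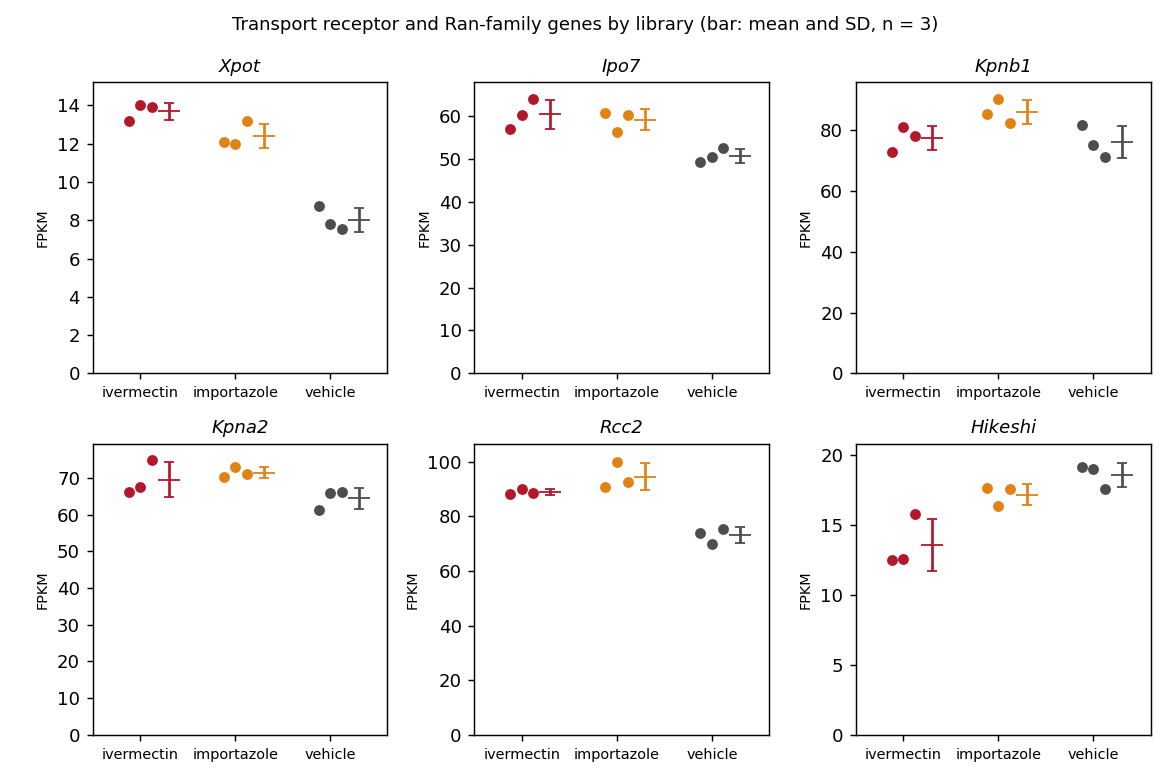
FPKM of 6 genes in each library (points) with the group mean and SD beside them (n = 3), ivermectin, importazole and vehicle from left to right, each axis starting at 0. In the panels of Xpot, Ipo7 and Rcc2 all 6 compound libraries lie above vehicle, and in that of Hikeshi the ivermectin libraries (12.5 to 15.8 FPKM) lie below vehicle (17.6 to 19.2 FPKM).

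Counts over the members describe the set beside the background of all genes. With ivermectin, 23 of 33 changes were above 0, and the members' median change was 0.07 against 0.01 for all genes tested. Its libraries lay wholly above vehicle for 6 members, against 12.4% of all genes, and wholly below for 1, Ranbp3, against 12.2%. At an unadjusted p under 0.05 there were 5 members with ivermectin, 15.2% against 20.7% of all genes. These were Xpot, Ipo7, Xpo5, Rangap1 and Kpna3.

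With importazole, 27 of 33 changes were above 0, and the members' median change was 0.11 against 0.04 for all genes. Its libraries lay wholly above vehicle for 14 members, 42.4% against 16.5% of all genes, and below for 0, against 7.07%. An unadjusted p under 0.05 was reached by 9 members, all of them higher, or 27.3% against 15.8% of all genes in either direction. These were Xpot, Ipo7, Xpo1, Nxf1, Kpnb1, Tnpo2, Kpna3, Kpna2 and Tnpo3. Of the 256 genes that limma called with importazole, 75% were higher. The count of 14 depended on scaling between libraries. It was 8 with quantile normalization, against 11.1% of all genes, and 10 with median-of-ratios scaling, against 11.5%. Counting libraries that do not overlap under these scalings was added after the data were seen. The importazole libraries of Kpna2, Kpna3, Kpnb1, Tnpo1, Xpo5, Xpo7 and Xpot lay wholly above vehicle as deposited and under both scalings. The share of all genes that did so under every scaling was not counted, so these names have no background beside them. Under both of these scalings 23 of 33 changes with importazole and 21 of 33 with ivermectin were above 0. The members' median change with importazole was then 0.06 to 0.07. For all genes it was -0.005 with quantile normalization and -0.001 with median-of-ratios scaling.

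Ivermectin minus importazole was above 0 for 12 of 33 members, with a median of -0.06 against -0.03 for all genes. That count was 16 with quantile normalization, 13 with median-of-ratios scaling, and 6 without ivermectin 3. With quantile normalization the members' median was 0.00, against 0.01 for all genes. Ivermectin lay wholly above importazole for 3 members, against 8.04% of all genes, namely Kpna4, Ipo13 and Xpot. It lay wholly below for 6, against 16.1%, namely Kpnb1, Tnpo1, Tnpo3, Rangap1, Rcc1 and Nutf2. The balance turned round with quantile normalization, to 6 above and 3 below, against 12.1% and 12% of all genes. With median-of-ratios scaling it was 4 and 4, against 11.5% and 12.5% of all genes. The balance over all genes thus moved with scaling as well. The 4 members with an unadjusted p under 0.05 were Rangap1, Tnpo1, Tnpo3 and Tnpo2, all lower with ivermectin.

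By class, the median change with ivermectin was 0.11 for importin alpha, 0.02 for beta type importers, 0.08 for exporters and -0.01 for the Ran cycle and messenger RNA export genes. With importazole it was 0.05, 0.09, 0.14 and 0.10 in the same order. These medians moved with the setting, over 0.02 to 0.17 for exporters with ivermectin, 0.01 to 0.09 for importin alpha with importazole and 0.03 to 0.13 for beta type importers with importazole. Summed over the class, the importin alpha genes came to 128 ± 6.24 FPKM with ivermectin, 130 ± 1.11 with importazole and 121 ± 4.2 with vehicle. The beta type importers came to 358 ± 11 FPKM with ivermectin, 370 ± 5.08 with importazole and 342 ± 10 with vehicle, of which Kpnb1 gave 21.6%, 23.2% and 22.2%. Kpnb1 was the leading gene of its class in each group. The exporters summed to 174 ± 8.93, 175 ± 4.73 and 163 ± 3.77 FPKM in the same groups. The Ran cycle class, dominated by Ran, summed to 789 ± 111, 917 ± 25.9 and 841 ± 100 FPKM (SD, n = 3 each).

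**Figure D3:**
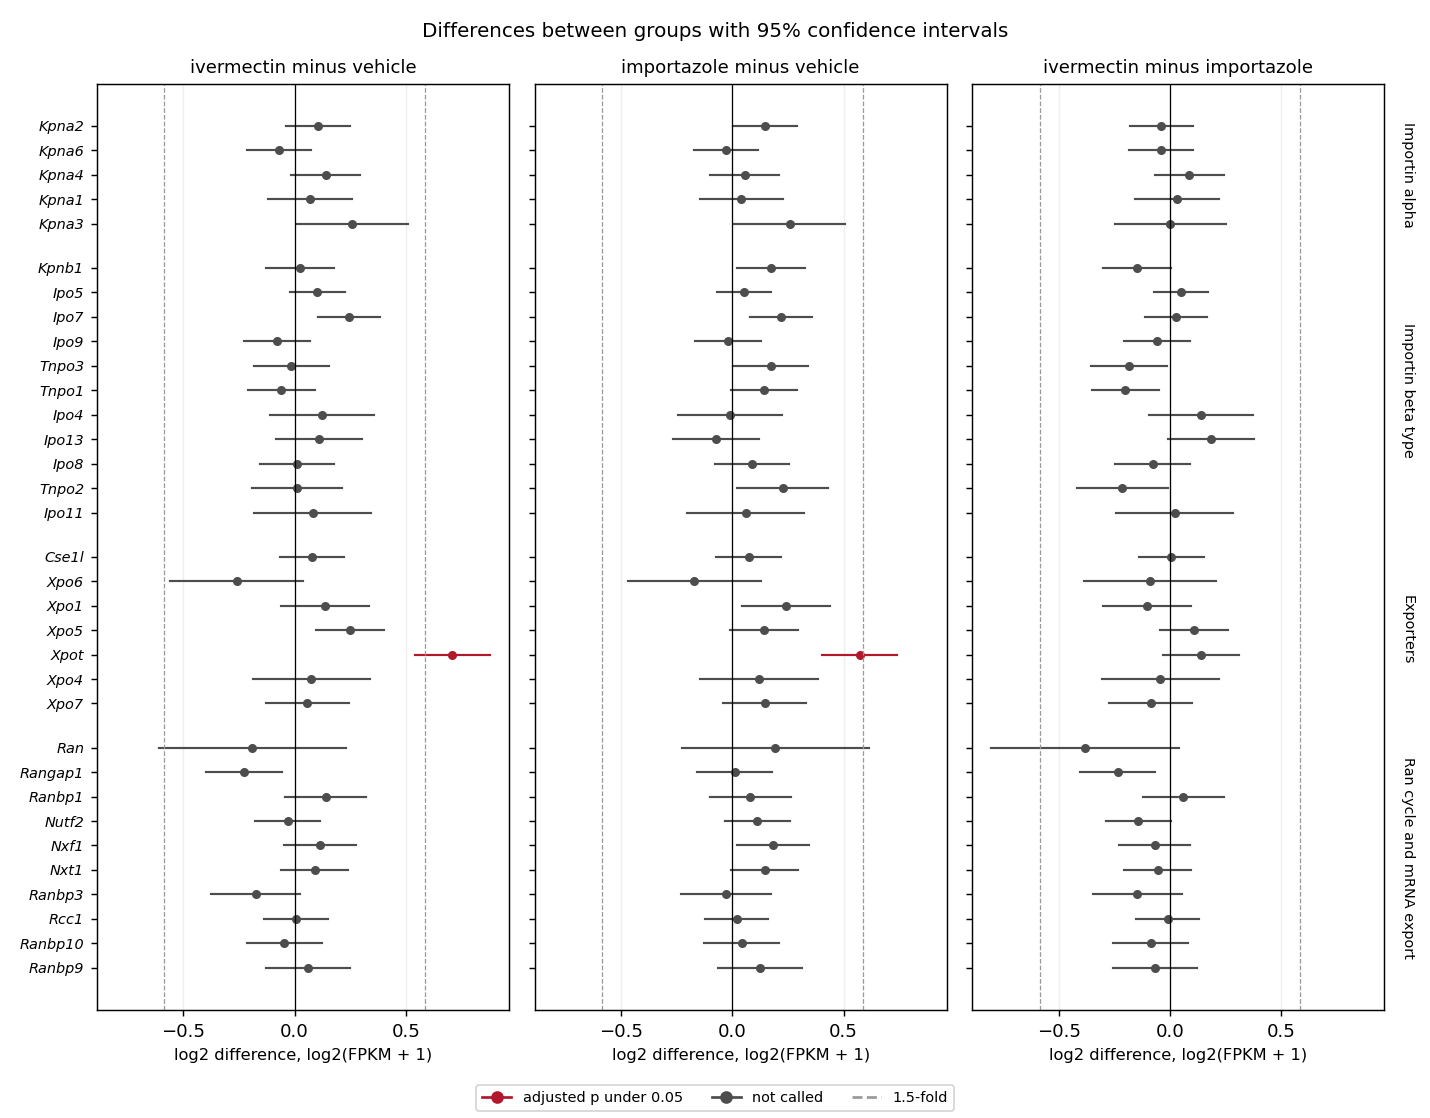
Log2 difference of each gene with its 95% confidence interval (horizontal axis) in the 3 comparisons, with called genes in red and dashed lines at a 1.5-fold change. Xpot is the only gene in red, at 0.71 with ivermectin and 0.57 with importazole, and the interval of Ran is the widest in each panel.

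The intervals show which sizes of change the libraries leave possible. For 31 of the 33 members with ivermectin, 31 with importazole and 32 between the compounds, the 95% interval lay wholly within a 1.5-fold change in either direction. The same held for 88%, 90.3% and 88.8% of all genes. The exceptions were Xpot and Ran in the comparisons with vehicle and Ran alone between the compounds. The median half-width of the interval was 0.17 for the members and 0.22 for all genes. The spread between libraries of a group was below the median of all genes for most members. Neither this comparison nor that of half-widths matched genes by level. The within-group SD on the log2 scale had a median of 0.0803 over the members and 0.12 over all genes, and 26 of 33 members lay below the median of all genes. It was smallest for Ipo5, at 0.0387, and largest for Ran, at 0.304, a value that 3.79% of genes exceeded.

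**Figure D4:**
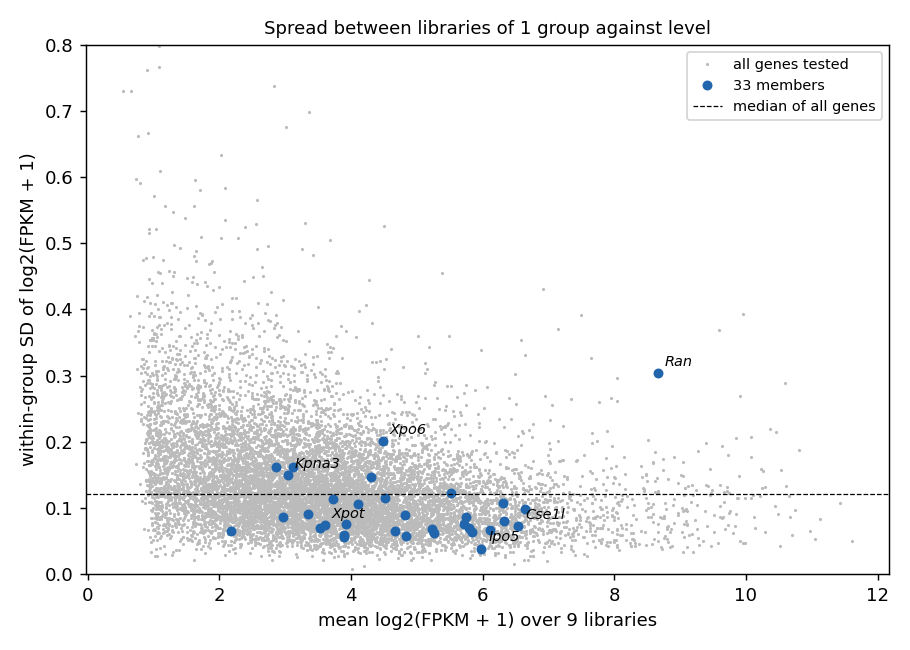
Within-group SD of log2(FPKM + 1) against the mean over 9 libraries for all 11337 genes tested (grey) and the 33 members (blue), with 33 genes above the top of the axis at 0.8. Most members lie below the dashed median of all genes (0.12), and Ran stands out at 0.304.

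Other genes of the same systems were read beside the members. A list of 16 further karyopherin and Ran genes held 10 that reached the level for testing. With ivermectin limma called 1 higher and 1 lower, against 4.31% of all genes. With importazole it called 1, against 2.26%, and between the compounds 0, against 3.42%. At an unadjusted p under 0.05 there were 4, 3 and 2 in the same order, against 20.7%, 15.8% and 19%. The list's median change was 0.16 with ivermectin and 0.11 with importazole, against 0.01 and 0.04 for all genes. Rcc2, a relative of Rcc1 that acts at centromeres and on Rac1 signalling, was called higher with both compounds. It had 88.1, 90 and 88.6 FPKM with ivermectin, 90.8, 100 and 92.6 with importazole and 73.9, 70 and 75.4 with vehicle. All 6 compound libraries lay above vehicle, and the log2 change was 0.28 with ivermectin (limma adjusted p = 0.0239) and 0.37 with importazole (limma adjusted p = 0.00814). The call with ivermectin was lost in 10 of 19 alternative settings (adjusted p up to 0.146) and that with importazole in 2, without a filter (0.0698) and without vehicle 2 (0.0506).

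Hikeshi, which imports heat shock protein 70 under stress and is listed in the files under the older symbol l7Rn6, was called lower with ivermectin. It had 12.5, 12.6 and 15.8 FPKM with ivermectin, 17.7, 16.4 and 17.6 with importazole and 19.2, 19 and 17.6 with vehicle. The ivermectin libraries lay below both other groups, and its log2 change was -0.43 with ivermectin (limma adjusted p = 0.0249) and -0.10 with importazole (limma adjusted p = 0.639). Ivermectin minus importazole was -0.32 (limma adjusted p = 0.0833), which did not pass as tested and passed without ivermectin 3 (adjusted p = 0.0143). The call with ivermectin was lost in 7 of 19 alternative settings, among them without vehicle 1, vehicle 2, ivermectin 1 or ivermectin 2 (adjusted p = 0.0806, 0.0898, 0.0814 and 0.0811). The other 8 tested genes of the list passed in no comparison.

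Among 23 adapters of messenger and small RNA export limma called 0 genes in each comparison. With an unadjusted p under 0.05 there were 3 with ivermectin, 2 with importazole and 3 between the compounds. The shares of all genes were 20.7%, 15.8% and 19% in the same order. The adapters' median change was 0.00 with ivermectin and 0.06 with importazole, against 0.01 and 0.04 for all genes. Several members, among them Kpna2, Cse1l, Ran, Ranbp1 and Rcc1, are known to be more abundant in cycling cells, so 24 proliferation genes were read as well. With ivermectin limma called 3 of them lower, Ccna2 (limma adjusted p = 0.0311), Pcna (limma adjusted p = 0.0413) and E2f1 (limma adjusted p = 0.0198), and 0 higher, against 2.52% of all genes called lower. At an unadjusted p under 0.05 there were 8 of the 24, all lower, against 20.7% of all genes in either direction. Between the compounds there were 5 of the 24, all lower with ivermectin, against 19% of all genes in either direction. The 3 calls were lost in 13, 15 and 6 of 19 alternative settings, with adjusted p up to 0.167. E2f1, a transcription factor of entry into S phase, averaged 47.7 ± 3.74 FPKM with ivermectin, 53.5 ± 2.72 with importazole and 61.5 ± 2.84 with vehicle (SD, n = 3 each). With importazole limma called 0 of the 24, and 2 had an unadjusted p under 0.05, against 15.8% of all genes. The median change of these genes was -0.04 with ivermectin and -0.02 with importazole, and the part of cycling in the members' values was not tested.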

How the data were processed

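Poly(A) RNA of HL-1 cells was sequenced on the Ion Proton system, per the labels' protocols. The authors deposited 1 file per library with gene symbols and FPKM values, per the file headers. Cufflinks, STAR, Bowtie and Bowtie2 are named in the submitters' processing notes, as are the builds mm10 and GRCm38. The sources used here give no tool version, annotation or use of strand. FPKM is relative to all mapped fragments.

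Rows of the 48 symbols that occur repeatedly were added up. The 11337 genes reaching 1 FPKM in 3 or more of 9 libraries were analysed as log2(FPKM + 1), with group alone in the model, using limma 3.58.1 in R 4.3.3 with trend and robust moderation. P-values are two-sided and adjusted over all genes tested by the Benjamini-Hochberg method. The procedure was tested on simulated data. Depth is unknown: ratios of low values between libraries fell on simple fractions for at most 15.7% of genes. Deviations from group means correlated at -0.21 to 0.14 between libraries of the same replicate number. The highest correlations with other numbers were -0.05 to 0.31. With 3 libraries a group, these values cannot decide whether the numbers pair libraries. The members and lists were chosen with earlier results of these data known. Values in every library are given for called members, Kpnb1, Ran, Rangap1, Ranbp1, Rcc1, the Kpna genes, Xpo1, Cse1l, and the highest, the lowest and the most changed member of each class. Xpo5 and the markers named were picked with their values in view. Genes of the lists are named where called. Gene positions come from GENCODE on GRCm38, and 50-base stretches shared between annotated transcripts were counted. Sequences come from RefSeq (GRCm38.p6). Alternatives are in the closing section. Figures were drawn with matplotlib 3.10.9.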

Additional observations from a re-analysis of the deposited data

How the results depend on the processing

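The alternatives were pseudocounts of 0.1 and 0.5 FPKM, filters at 5 FPKM or none, median-of-ratios scaling, quantile normalization, a fit to the 6 libraries compared, a replicate block, moderation without trend or robustness, leaving out each library, and leaving out both vehicle 2 and ivermectin 3. Of 99 values of members by comparison, 98 kept their side of the threshold in every setting that could be run, 19 for each member except Xpo7, which a filter at 5 FPKM left out (18). The exception was Ipo7 with ivermectin. The count of members called with ivermectin was 1, and 2 with a filter at 5 FPKM and with quantile normalization. Genes called with ivermectin fell to 132 without a filter, 274 in the fit to 6 libraries and 195 without vehicle 2 and ivermectin 3, against 489, and were 243 to 399 when 1 library was left out. Genes called with importazole were 256, against 74 without a filter, 161 without both libraries and 128 to 320 with 1 library left out. Between the compounds they were 388, against 108 without a filter, 257 with a replicate block, 233 without both libraries and 177 to 396 with 1 library left out. Fewer samples or more genes entered these fits, apart from the replicate block, and whether that moved the counts was not tested. For the replicate block and for the count of members called, the cause was not tested either. With the replicate block, which the labels do not support as a pairing, 354 genes were called with ivermectin, 175 with importazole and 257 between the compounds, and 1, 1 and 0 members, with Xpot at adjusted p = 0.00317 and 0.0136. Calls higher and lower with importazole were 192 and 64 as deposited, 159 and 117 after quantile normalization and 159 and 118 after median-of-ratios scaling. Between the compounds they were 81 and 307, then 191 and 274, and 161 and 280. Groups of 3 libraries and an unknown depth limit what the values can show for low genes.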
